A study of Mus musculus with 11 samples.

Results

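The genes described here are 10 markers of lipid-associated macrophages, of scar-associated macrophages and of phagocytes that enter the liver from the blood, namely *Trem2*, *Gpnmb*, *Cd9*, *Spp1*, *Lgals3*, *Ctss*, *Cd68*, *Lyz2*, *Cybb* and *Tyrobp*. They were picked by symbol, and 9 of the 10 were measured among the 13669 genes of the counts table, whereas *Trem2* was not analysed here. Liver RNA from 11 male wild-type C57BL/6J mice on regular chow was compared. In 6 animals a recombinant adeno-associated virus of serotype 8 (rAAV8) expressed TuD, a tough decoy RNA that captures *miR-379* and *miR-541* (AAV-TuD), and in the other 5 the same type of vector expressed a negative control sequence (AAV-NC). Animals of both groups therefore carried a vector, and no liver without virus was compared. Expression of the decoy was driven by LP1, a liver-specific promoter made of parts of human apolipoprotein and alpha-1-antitrypsin regulatory regions, and decoy RNA in macrophages was not measured here. The age of these animals at death and the time since injection are not stated for each mouse. The question was how these macrophage genes differed between livers with and without the decoy.

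Lipid-associated macrophages arise in fatty or injured tissue, largely from blood monocytes, and take up and digest lipid and cell debris. The receptor TREM2 signals through the adaptor DAP12, which *Tyrobp* encodes, and the cells that carry it share a program with *Gpnmb*, *Cd9*, *Spp1* and *Lgals3*. *Ctss*, *Cd68*, *Lyz2* and *Cybb* are used by phagocytes in general, the resident Kupffer cells of the liver included. In a whole liver, more cells of a type and more RNA per cell cannot be told apart, and *Spp1*, *Cd9* and *Lgals3* are also expressed by bile duct epithelium.

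The 2 miRNAs that the decoy was built to bind are shown first. The mature sequences are those of RefSeq, the capitals mark the seed (bases 2 to 8), and both are encoded on the plus strand of chromosome 12 of GRCm38, at chr12:109709065-109709085 for *miR-379-5p* and chr12:109742422-109742446 for *miR-541-5p*.
mmu-miR-379-5p: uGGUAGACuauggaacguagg
mmu-miR-541-5p: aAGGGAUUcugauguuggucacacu
Their seeds differ. The letters that pair with them, GTCTACC and AATCCCT, did not occur in the longest annotated 3′ UTR of any of the 10 members, which had a median length of 413.5 bases against 960 for all protein-coding genes. Among 21037 protein-coding genes, 4.79% held GTCTACC and 8.09% held AATCCCT. The paper reports that the decoy also lowered other miRNAs encoded in the same cluster. Their seeds were not searched here, nor were sites outside the 3′ UTR.

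Of the 9 markers measured, 8 were higher with AAV-TuD, none was lower, and *Cd9* did not pass the test. The median log2 fold change of the 9 was 1.12, with a range of 0.71 (*Cd9*) to 4.75 (*Gpnmb*), whereas the median of all 13334 genes tested was -0.00. By the quasi-likelihood test of edgeR, with an adjusted p threshold of 0.05, 7.24% of all those genes were called higher and 4.33% lower. The AAV-TuD values were all above the AAV-NC values for *Gpnmb*, *Spp1*, *Ctss* and *Cybb*, 4 of the 9, and this was the case for 4.11% of all genes tested. *Gpnmb* passed the filter on low counts (over 10 reads in 5 or more livers) only through AAV-TuD livers, so its presence among the tested genes already required a difference. The members were chosen with results of these livers known, and the shares over all genes are given as a scale only.

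Libraries held between 8148531 and 12043959 reads on genes. They were made with a kit that reads the 3′ end of each transcript, and values are given as CPM, the counts scaled to a common library size with TMM-scaled library sizes, so that levels of different genes can be set side by side without division by transcript length. Major urinary protein (*Mup*) transcripts took over 25% of the reads in 3 livers, AAV-NC 7 (38.6%) and AAV-TuD 3 and 5 (30.9% and 28.4%). Without these 3 livers, *Gpnmb* no longer passed the filter and all 8 other members, *Cd9* included, were called higher.

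**Figure D1:**
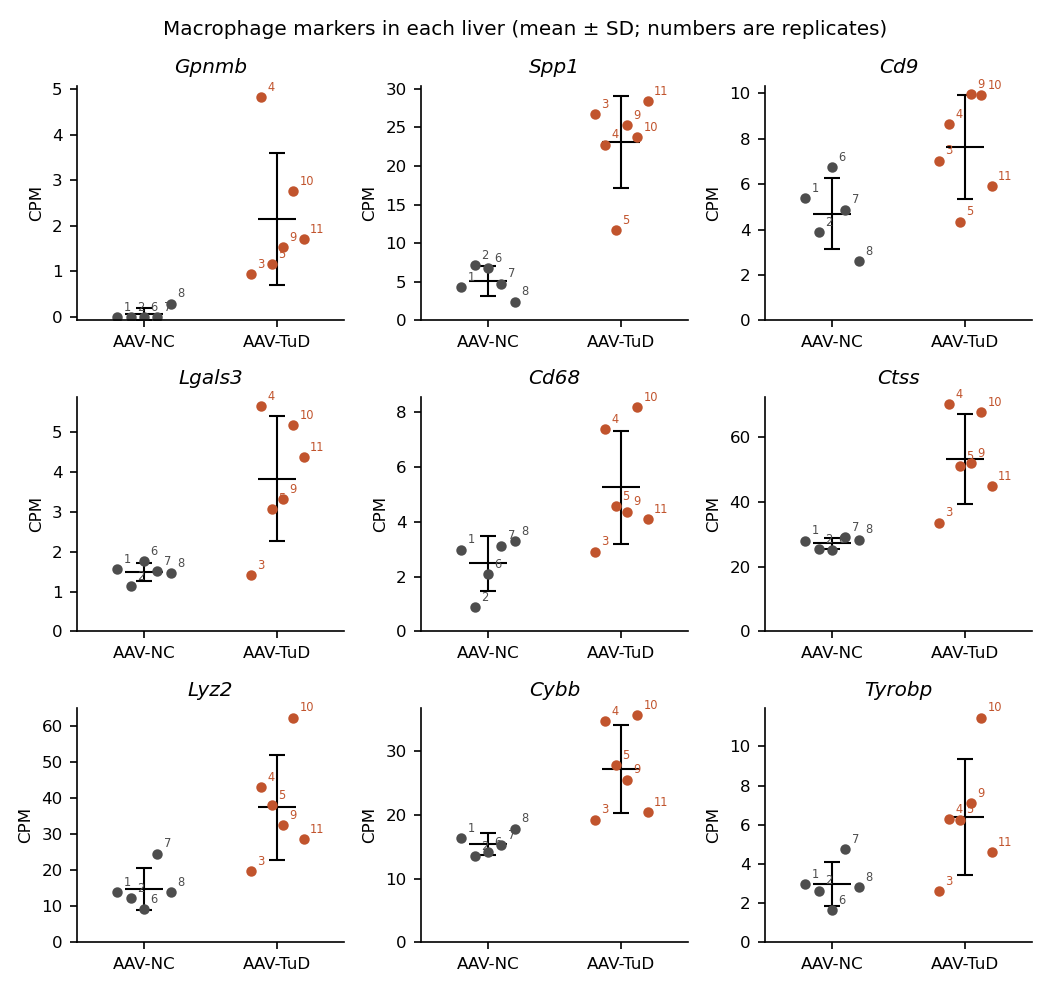
Level of each measured marker in CPM (vertical axes, 1 panel per gene, from 0, or from just below it where the error bar of *Gpnmb* reaches there) in the 5 AAV-NC and 6 AAV-TuD livers; points are livers with their replicate numbers, bars are means and error bars are SD. The AAV-TuD points lie above all AAV-NC points for *Gpnmb*, *Spp1*, *Ctss* and *Cybb*, and at least 1 AAV-TuD liver overlaps the AAV-NC livers in each of the other 5 panels.

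*Tyrobp*, the adaptor that carries the signal of TREM2 and related receptors into the cell (ENSMUSG00000030579, chr7:30413760-30417585), was measured at 2.98, 2.64, 1.66, 4.76 and 2.82 CPM in AAV-NC livers 1, 2, 6, 7 and 8. In AAV-TuD livers it ranged from 2.63 (liver 3) through a median of 6.28 to 11.5 CPM (liver 10). The mean was 2.97 ± 1.12 CPM (SD, n = 5) with AAV-NC and 6.40 ± 2.96 CPM (SD, n = 6) with AAV-TuD, and 4 of 6 AAV-TuD livers lay above all controls. The log2 fold change was 1.12 (SE 0.32, adjusted p = 0.0349 in edgeR). This call was lost in 8 of the 11 fits that left out 1 liver (AAV-NC 1, 2, 6 or 8 and AAV-TuD 4, 5, 9 or 10), with adjusted p values of up to 0.0874. Of the 16 listed genes of TREM2 and DAP12 signaling, 12 were tested and 3 were higher with none lower, with a median log2 fold change of 0.41. These were *Blnk*, an adaptor of immunoreceptor signaling (2.28, adjusted p = 0.000245), *Btk*, a kinase of the same pathways (1.39, adjusted p = 0.0477), and *Adam10*, a protease that sheds TREM2 from the surface (0.42, adjusted p = 0.0310). *Blnk* and *Btk* had 39 and 22 reads over the 5 AAV-NC livers and could not have passed the filter without AAV-TuD reads. *Syk*, the kinase recruited by DAP12, had a log2 fold change of 0.89 and did not pass (adjusted p = 0.0783).

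*Gpnmb*, a transmembrane glycoprotein of lysosomes and the cell surface in lipid-laden macrophages (ENSMUSG00000029816, chr6:49036546-49070929), was almost unread in controls. No read was counted in AAV-NC livers 1, 2, 6 and 7, and 3 reads were counted in AAV-NC liver 8. In AAV-TuD livers 3, 4, 5, 9, 10 and 11 there were 10, 53, 11, 19, 32 and 20 reads. In CPM the 6 AAV-TuD livers ranged from 0.939 (liver 3) through a median of 1.62 to 4.83 (liver 4), while a count of 0 allows up to 3 reads, or 0.243 to 0.378 CPM depending on the liver. Summed over each group, 145 reads stood against 3, a ratio of rates of 31.6 (95% exact counting interval 10.6 to 155.1, which covers counting error only). The fitted log2 fold change was 4.75 (SE 0.76, adjusted p = 0.00143). It had the highest fitted value among the 966 higher genes, but with so few control reads this value depends on the prior count in edgeR's own fit. That is not the prior count of 2 used for log2 CPM.

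*Cd9*, a tetraspanin that organizes other membrane proteins (ENSMUSG00000030342, chr6:125460266-125494791), was the marker that did not pass. Its level was 5.37, 3.90, 6.75, 4.88 and 2.63 CPM in AAV-NC livers 1, 2, 6, 7 and 8. AAV-TuD livers ranged from 4.36 (liver 5) through a median of 7.85 to 9.96 CPM (liver 9), and 4 of 6 lay above all controls. The log2 fold change was 0.71 (SE 0.24, adjusted p = 0.0708 in edgeR). It was past the threshold with DESeq2 (0.70, adjusted p = 0.0423) and with library size alone (0.98, adjusted p = 0.0139), so the call turned on the fit. Of the other tetraspanins 13 were tested, with 3 higher, 1 lower and a median log2 fold change of 0.13. *Cd63*, a tetraspanin of late endosomes and lysosomes, was higher (1.92, adjusted p = 0.000808), as were *Tspan3* (1.14, adjusted p = 0.0155) and *Tspan7* (0.53, adjusted p = 0.0199). *Tspan3* had 38 reads over the 5 AAV-NC livers and could not have passed the filter without AAV-TuD reads. *Tspan12* was lower (-0.36, adjusted p = 0.0136). *Cd81*, a close relative of *Cd9*, had a log2 fold change of 0.13.

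*Spp1*, which encodes the secreted matrix protein osteopontin (ENSMUSG00000029304, chr5:104435118-104441050), had the largest difference among the markers with reads in every liver. It was 4.30, 7.18, 6.75, 4.76 and 2.43 CPM in AAV-NC livers 1, 2, 6, 7 and 8. The AAV-TuD livers lay between 11.7 (liver 5) and 28.4 CPM (liver 11), with a median of 24.5, and all 6 were above all controls. The mean rose from 5.08 ± 1.93 (SD, n = 5) to 23.1 ± 5.95 CPM (SD, n = 6), a log2 fold change of 2.20 (SE 0.25, adjusted p = 0.000118 in edgeR). Among the 966 higher genes it was the 42nd by fold change and the 16th by p value. Its order over the AAV-TuD livers was not that of the other members, with 26.8 CPM in liver 3, which was low for most of them, and the lowest value in liver 5.

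Since *Spp1* is also a gene of bile duct cells, the cholangiocyte markers are given beside it. Of 16 such markers 8 were tested and 6 were higher, among them *Epcam*, an adhesion molecule of biliary epithelium (2.0, adjusted p = 0.00348) and *Prom1* (1.66, adjusted p = 0.00133). The others were *Krt19* (1.46), *Sox9* (0.82), *Pkhd1* (1.09) and *Krt23* (1.98). *Epcam*, *Prom1*, *Krt19* and *Krt23* had 28, 38, 34 and 26 reads over the 5 AAV-NC livers. These genes could not have passed the filter on low counts without AAV-TuD reads, so the count of 6 of 8 partly follows from the filter. The summed level of the 10 markers in the table was 39.8 to 62.7 CPM in AAV-NC livers and 60.1 to 86.4 CPM in AAV-TuD livers. The lowest AAV-TuD sum was that of liver 5, which also had the lowest *Spp1*, and liver 3 had a sum of 83.8 CPM. *Krt7* and *Cftr* were not analysed here. The part of these cells in the *Spp1* difference was not tested.

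Osteopontin acts through CD44 and a set of integrins. All 9 listed receptor genes were tested, 4 were higher and none was lower, with a median log2 fold change of 0.40. *Cd44* had a log2 fold change of 1.06 (adjusted p = 0.00556), *Itga9* of 0.51 (adjusted p = 0.00275), *Itga4* of 0.58 (adjusted p = 0.0288) and *Itgb5* of 0.40 (adjusted p = 0.0493). The differences in receptor transcripts were thus smaller than that of the ligand, and they were not tested against it.

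*Lgals3*, a secreted and cytosolic lectin that binds galactosides and gathers at damaged lysosomes (ENSMUSG00000050335, chr14:47367751-47386160), was 1.55, 1.13, 1.77, 1.5 and 1.46 CPM in AAV-NC livers 1, 2, 6, 7 and 8. AAV-TuD livers ranged from 1.41 (liver 3) through a median of 3.84 to 5.65 CPM (liver 4). Only AAV-TuD liver 3 overlapped the controls, and the log2 fold change was 1.36 (SE 0.31, adjusted p = 0.0104). Between 9 and 16 reads were counted per AAV-NC liver. In 4 of the 5 they were over 10, so the filter on low counts was passed only with AAV-TuD livers counted as well. Of the other galectins and their ligands 5 were tested and 2 were higher, *Lgals1* (1.73, adjusted p = 0.000647) and the galectin-3 binding protein gene *Lgals3bp* (0.51, adjusted p = 0.0152). *Lgals9* had a log2 fold change of 0.14.

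*Lyz2*, the lysozyme of macrophages and granulocytes, which cleaves bacterial cell walls (ENSMUSG00000069516, chr10:117277331-117282321), was 14.0, 12.3, 9.30, 24.7 and 13.9 CPM in AAV-NC livers 1, 2, 6, 7 and 8. It ranged from 19.8 (liver 3) through a median of 35.4 to 62.4 CPM (liver 10) in AAV-TuD livers. AAV-NC liver 7, the control with the highest *Mup* share, overlapped with AAV-TuD liver 3 alone. The log2 fold change was 1.34 (SE 0.27, adjusted p = 0.00537). The longest transcripts of *Lyz2* and its paralog *Lyz1* were 96.0% identical over 1262 aligned bases, but the libraries read the 3′ end. Of the overlapping 50-base stretches in the last 300 bases of *Lyz2*, 55 also occurred in *Lyz1* and the others did not. How reads that match both were counted is not stated, so the *Lyz2* counts may include some of *Lyz1*, which was not analysed here.

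*Ctss*, a cysteine protease that works in lysosomes and trims the invariant chain of MHC class II (ENSMUSG00000038642, chr3:95526786-95556403), was the most abundant marker. AAV-NC livers 1, 2, 6, 7 and 8 were within a narrow span, at 28.1, 25.3, 25.2, 29.0 and 28.3 CPM. AAV-TuD livers ranged from 33.6 (liver 3) through a median of 51.6 to 70.2 CPM (liver 4), with no overlap. The log2 fold change was 0.97 (SE 0.15, adjusted p = 0.00133). None of the 11 tested genes among 14 other cathepsins and cystatins passed, and their log2 fold changes lay between -0.29 (*Ctsc*) and 0.32 (*Cstb*), with a median of 0.00. *Ctsb*, *Ctsl* and *Ctsd*, cathepsins that most cells express, had log2 fold changes of 0.04, -0.03 and 0.11, and *Cst3*, a secreted inhibitor of cathepsins, of 0.18.

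*Cd68*, a heavily glycosylated protein of macrophage lysosomes (ENSMUSG00000018774, chr11:69664213-69666153), was 2.98, 0.881, 2.10, 3.13 and 3.31 CPM in AAV-NC livers 1, 2, 6, 7 and 8. AAV-TuD livers ranged from 2.91 (liver 3) through a median of 4.47 to 8.19 CPM (liver 10), and only liver 3 overlapped the controls. The log2 fold change was 1.07 (SE 0.31, adjusted p = 0.0359), and the call was lost in 5 of the 11 fits that left out 1 liver (AAV-NC 1, 2 or 6 and AAV-TuD 4 or 10), with adjusted p values of up to 0.0852. Between 7 and 34 reads were counted per AAV-NC liver, which limits the precision of its control level. In 4 of the 5 they were over 10, so the filter on low counts was passed only with AAV-TuD livers counted as well.

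*Cybb* encodes the catalytic subunit of the phagocyte NADPH oxidase, which makes superoxide (ENSMUSG00000015340, chrX:9435252-9487771). Its levels were 16.4, 13.5, 14.2, 15.3 and 17.8 CPM in AAV-NC livers 1, 2, 6, 7 and 8. The AAV-TuD livers ranged from 19.3 (liver 3) through a median of 26.7 to 35.6 CPM (liver 10), all above the controls, and the log2 fold change was 0.82 (SE 0.16, adjusted p = 0.00443). Of 9 listed oxidase genes besides *Cybb*, 6 were tested, 2 were higher and none was lower. *Cyba*, the membrane partner of the *Cybb* product, had a log2 fold change of 0.79 (adjusted p = 0.0250) and *Rac2*, the GTPase of the complex in blood cells, of 1.12 (adjusted p = 0.0225). The cytosolic subunit gene *Ncf1* (0.77, adjusted p = 0.0607) did not pass, nor did *Nox4*, the catalytic subunit of other cell types (-0.39, adjusted p = 0.185).

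**Figure D2:**
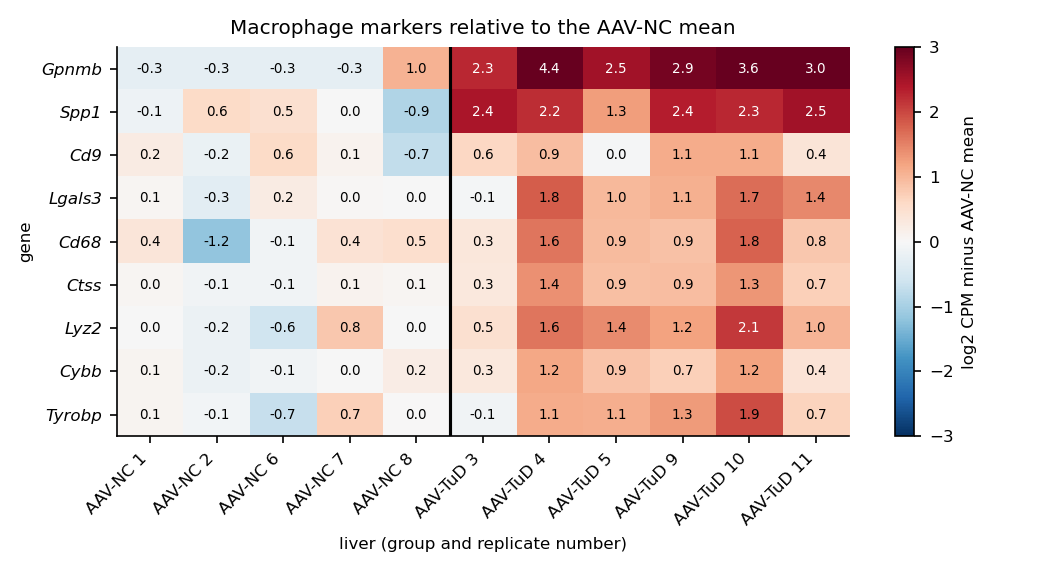
Difference in log2 CPM of each marker (rows) in each of the 11 livers (columns) from its AAV-NC mean, printed in each cell and shown by color. The column of AAV-TuD liver 3 holds the smallest AAV-TuD differences in 7 of the 9 rows, all but *Spp1* and *Cd9*, and the differences of AAV-TuD livers 4 and 10 are on average the largest.

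The AAV-TuD livers differed among themselves in a way that most members shared. Averaged over the 9 markers, log2 CPM minus the AAV-NC mean was 0.74 in AAV-TuD liver 3, 1.10 in liver 5, 1.22 in liver 11, 1.38 in liver 9, 1.80 in liver 4 and 1.90 in liver 10, while AAV-NC livers lay between -0.22 and 0.21. AAV-TuD liver 10 was among the 2 highest of its group for 8 of the 9 members and liver 4 for 6. Among the 2 lowest were liver 3 for 7 members, liver 11 for 6 and liver 5 for 4. The 2 AAV-TuD livers with the highest *Mup* shares, 3 and 5, were those with the lowest averages. By the count of low members, however, liver 11, with a *Mup* share of 15.3%, came before liver 5. The part of the *Mup* share in this order was not tested. Leaving out either AAV-TuD liver 4 or AAV-TuD liver 10 reduced the number of members called from 8 to 5, because *Gpnmb* no longer passed the filter and *Cd68* and *Tyrobp* no longer passed the test.

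A similar order was found for *Csf1r*, the receptor of the growth factor that macrophages depend on. It was 24.7 CPM in AAV-TuD liver 3, 37.3 in liver 11, 45.1 in liver 9, 51.6 in liver 5, 54.8 in liver 4 and 78.2 in liver 10, against 20.1 to 33.7 CPM in AAV-NC livers, and its log2 fold change was 0.98 (adjusted p = 0.0116). Liver 5 was placed higher by *Csf1r* than by the mean of the members.

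The genes whose pattern was most like the mean of the members were sought among 8366 genes with at least 50 reads on average, by the root mean square difference in log2 CPM over the 11 livers after subtraction of each gene's AAV-NC mean. The 5 nearest were *Ccdc34* (0.215), *Tceal8* (0.219), *Sirpa* (0.227), *Axl* (0.245) and *Vcam1* (0.254), whereas the median over all candidates was 1.09. The first 2, with log2 fold changes of 1.52 (*Ccdc34*) and 1.42 (*Tceal8*), are not known as macrophage genes. *Sirpa* encodes a receptor of myeloid cells for CD47, *Axl* a receptor tyrosine kinase used in the uptake of dying cells, and *Vcam1* an adhesion molecule. Because they were picked for likeness to a mean that separates the groups, their differences follow from the choice and are given as a description. The log2 fold changes were 1.19 for *Sirpa*, 1.23 for *Axl* and 1.12 for *Vcam1*. Of the members themselves, *Lyz2* was the closest to the mean, at 0.295, and *Gpnmb* the farthest, at 1.38.

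General and resident macrophage genes differed as well, and these were used to ask whether the members differed by more than the macrophage genes around them. Of 25 general macrophage and phagocyte genes 21 were tested and 12 were higher, with a median log2 fold change of 0.86. Among them were *Mpeg1*, a pore-forming protein of phagocytes (0.98, adjusted p = 0.000648), and *Axl*. Of 12 resident Kupffer cell markers 11 were tested and 6 were higher, with a median log2 fold change of 0.79. *Vsig4*, a complement receptor (0.93, adjusted p = 0.00509), *C1qc*, a chain of complement C1q (0.84, adjusted p = 0.00669), and *Clec4f*, a lectin of Kupffer cells (0.89, adjusted p = 0.0171), were higher, as were *C1qa* (0.79), *C1qb* (0.98) and *Cd5l* (0.97), while *Timd4*, a receptor of long-lived Kupffer cells, had a log2 fold change of 0.30 and did not pass (adjusted p = 0.433). No gene of either list was lower.

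Each member was then divided by the summed level of the 11 resident Kupffer cell markers in the same liver. That sum was 159 to 214 CPM with AAV-NC and 170 to 405 CPM with AAV-TuD, a log2 difference of 0.62 (two-sided exact permutation test over the livers, p = 0.0195). Its largest part was *Slc40a1*, with means of 54.75 CPM with AAV-NC and 56.24 CPM with AAV-TuD (log2 fold change 0.04, adjusted p = 0.900 in edgeR). The sum of *Clec4f*, *Vsig4*, *Timd4* and *Cd5l* alone had a larger log2 difference, 0.85 (exact p = 0.0130), so ratios to it were smaller. Relative to the sum of all 11 markers, *Spp1* was higher by 1.59 on the log2 scale (exact p = 0.0108) and *Lyz2* by 0.70 (exact p = 0.00433). Relative to that same sum, *Lgals3* was higher by 0.59 (exact p = 0.0325) and *Ctss* by 0.31 (exact p = 0.00866). *Cd68* (0.48, exact p = 0.0779), *Tyrobp* (0.41, exact p = 0.0844), *Cybb* (0.17, exact p = 0.178) and *Cd9* (0.08, exact p = 0.846) did not pass. For *Gpnmb* the difference was 3.27, but 4 of the 5 controls were at 0, so this value depends on the 0.1 CPM added before taking logs, and since the gene was tested only because of its AAV-TuD reads, its p value (exact p = 0.00216, the smallest that 6 against 5 allow) adds nothing. The 9 comparisons share 1 denominator, and their p values are not adjusted. With *Adgre1* alone as the denominator, or with *Clec4f*, *Vsig4*, *Timd4* and *Cd5l* alone, 3 of the 9 passed in place of 5 (*Gpnmb* included). *Lgals3* and *Ctss* no longer passed with either. Their differences were 0.52 (exact p = 0.208) and 0.25 (exact p = 0.377) with *Adgre1*. With the 4 markers they were 0.36 (exact p = 0.165) and 0.08 (exact p = 0.552), and the differences of *Cd9* (-0.15) and *Cybb* (-0.06) had the opposite sign. With the summed general macrophage and phagocyte list 6 passed, *Cybb* in addition (0.27, exact p = 0.0152). The log2 difference of that sum was 0.51 (exact p = 0.0108), smaller than that of the 4 markers, so ratios to it were larger. It includes *Mrc1* (45.8 CPM with AAV-NC, 47.1 with AAV-TuD) and *Fcgr2b* (20.3 and 17.4 CPM), which are also on the sinusoidal endothelial list. Of the 21 tested genes of the general list, 12 were higher.

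**Figure D3:**
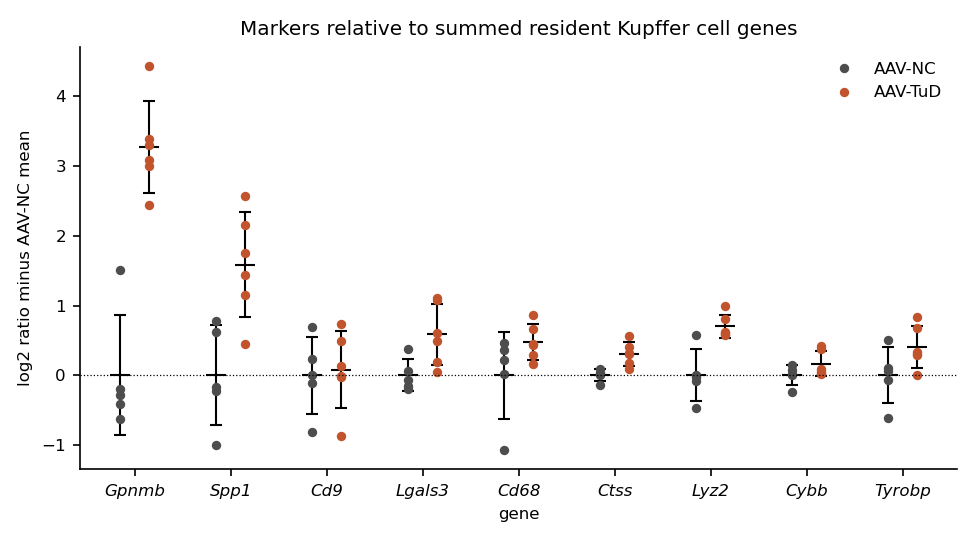
Log2 ratio of each member to the summed resident Kupffer cell markers of the same liver, minus the AAV-NC mean (vertical axis), for the 5 AAV-NC and 6 AAV-TuD livers; points are livers, horizontal marks are group means and error bars are SD. All 6 AAV-TuD points of *Gpnmb* lie above the AAV-NC points, as do 5 of 6 for *Spp1*, *Lyz2* and *Ctss*, whereas *Cybb* and *Cd9* overlap widely.

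Further genes of the lipid-associated program did not all move with the members. Of 22 listed, 18 were tested, 5 were higher and none was lower, with a median log2 fold change of 0.10. The higher ones were *Lpl*, lipoprotein lipase (2.37, adjusted p = 1.52e-05), *Lipa*, the acid lipase of lysosomes (0.57, adjusted p = 0.00288), *Cd36*, a scavenger receptor and fatty acid transporter (1.60, adjusted p = 0.000336), *Cd63*, and *Mmp12*, an elastase of macrophages. *Mmp12* had 4 reads over the 5 AAV-NC livers, 3 of them at 0, and 111 reads over the 6 AAV-TuD livers. Like *Gpnmb*, it passed the filter only through AAV-TuD livers, so its call among the 5 was conditioned on a difference. *Plin2*, which coats lipid droplets, had a log2 fold change of -0.02, and *Fabp5*, a fatty acid binding protein, of -1.10 (adjusted p = 0.0686). *Lpl*, *Lipa* and *Cd36* are not particular to macrophages.

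Markers of recruited monocytes were few in the table. Of 17 listed, 5 were tested, and all 5 were higher, with a median log2 fold change of 1.16. *Ccr2*, the chemokine receptor by which monocytes leave the marrow, had a log2 fold change of 1.74 (adjusted p = 0.00207) with no overlap between the groups, and *Cx3cr1*, the fractalkine receptor, of 2.11 (adjusted p = 0.00693). *S100a6* (1.16, adjusted p = 0.00947), *Itgal* (0.91, adjusted p = 0.0231) and *Plac8* (0.60, adjusted p = 0.0476) were also higher. *Ccr2* and *Cx3cr1* had 34 and 32 reads over the 5 AAV-NC livers, against 176 and 218 over the 6 AAV-TuD livers. They could not have passed the filter on low counts without AAV-TuD reads, so the count of 5 of 5 partly follows from the filter. The summed level of the list was 7.26 to 11.1 CPM with AAV-NC and 13.8 to 25.8 CPM with AAV-TuD, highest in livers 10 and 4. The defining genes *Ly6c2*, *Chil3* and *F13a1* were not analysed here.

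Markers of other liver cells moved beside the members to an unequal extent. Of 16 stellate cell markers 14 were tested and 10 were higher, among them *Col3a1* (1.91, adjusted p = 1.52e-05) and *Col1a1* (2.30, adjusted p = 3.88e-05), and their summed level was 267 to 351 CPM with AAV-NC and 453 to 598 CPM with AAV-TuD. None of the 15 sinusoidal endothelial markers passed (smallest p for *Flt1*, -0.19, adjusted p = 0.311, and *Fcgr2b*, -0.23, adjusted p = 0.354), and their sums were 389 to 424 and 383 to 415 CPM. Of 14 hepatocyte genes 13 were tested and 3 were lower, *Apob* (-0.40), *Hnf4a* (-0.38) and *Asgr1* (-0.28). *Alb*, which encodes albumin, had a log2 fold change of 0.41 that did not pass (adjusted p = 0.0805), with all 6 AAV-TuD livers above the controls, and the summed level of the list was 46590 to 52660 CPM with AAV-NC and 51340 to 58470 CPM with AAV-TuD. For neutrophils 2 of 13 markers were tested, with *Lcn2*, which hepatocytes also express, higher (2.28, adjusted p = 0.0102) and *S100a9* not past the threshold (0.32, adjusted p = 0.684). Of dendritic cell markers 2 of 9 were tested and neither passed (*Clec9a*, 0.81, adjusted p = 0.107, and *Zbtb46*, 0.01, adjusted p = 0.975), and of 19 T, NK and B cell markers only *Ighm* was tested (-0.48, adjusted p = 0.291). The part of these cells in the levels of the members was not tested.

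**Figure D4:**
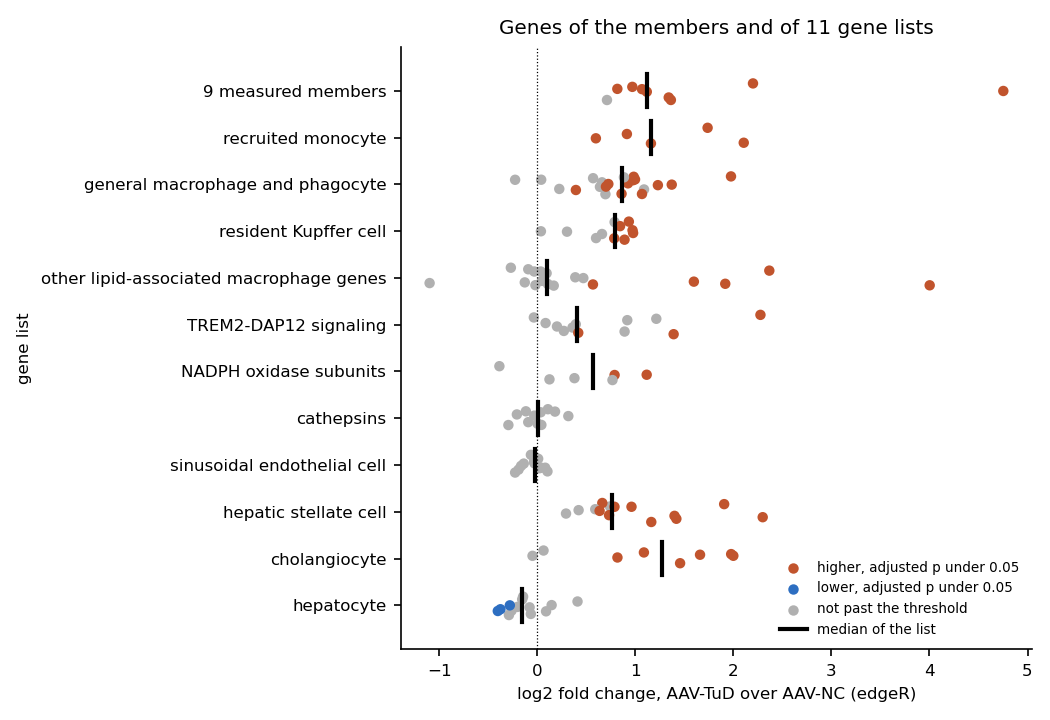
Log2 fold change (AAV-TuD against AAV-NC, horizontal axis) of each tested gene of the members and of 11 of the gene lists (rows); colored points passed an adjusted p of 0.05 in edgeR, grey points did not, and bars mark medians. The medians of the members (1.12), of the recruited monocyte markers (1.16) and of the cholangiocyte markers (1.27) lie to the right of those of the cathepsins (0.00) and the sinusoidal endothelial markers (-0.03).

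The promoters of the members were searched for sites of factors that are active in macrophages. The windows are those of RefSeq for GRCm38, 250 bases before to 50 after the start, and 9 of the 10 members had at least 1. *Tyrobp* had none and *Trem2* had a window, so these 9 are not the same as the 9 markers measured. GAGGAAGT, a site of the myeloid factor PU.1, was found on either strand in 2 of the 9, *Spp1* and *Ctss*, against 3.69% of 27025 genes. TGANTCA, the site of AP-1, was found in 4 of the 9, *Gpnmb*, *Cd68*, *Trem2* and *Cybb*, against 8.97%. CACATG was found in *Cd9* and *Ctss*, against 15.89%, and CACGTG, which TFE3 and related factors bind, in none, against 8.09%. *Spp1* also had a further window, chr5:104435942-104436241, which held none of the 4 motifs. A match of letters is a description and does not show that a factor binds. The windows of the 4 members with the clearest examples are printed 5′ to 3′ along the gene's strand, with the matched letters in capitals.
Spp1 (chr5:104434861-104435160, plus strand): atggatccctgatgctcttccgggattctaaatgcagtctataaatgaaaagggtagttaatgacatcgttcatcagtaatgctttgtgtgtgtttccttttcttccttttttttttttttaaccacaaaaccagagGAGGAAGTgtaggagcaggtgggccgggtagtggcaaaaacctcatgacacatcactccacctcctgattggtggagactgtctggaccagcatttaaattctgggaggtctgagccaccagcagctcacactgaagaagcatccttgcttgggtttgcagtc
Gpnmb (chr6:49036268-49036567, plus strand): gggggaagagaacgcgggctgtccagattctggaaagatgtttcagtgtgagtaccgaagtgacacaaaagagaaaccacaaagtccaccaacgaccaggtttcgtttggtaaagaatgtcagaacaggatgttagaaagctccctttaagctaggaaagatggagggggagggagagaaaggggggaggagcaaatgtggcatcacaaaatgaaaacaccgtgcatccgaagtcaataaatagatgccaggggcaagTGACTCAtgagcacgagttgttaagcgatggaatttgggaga
Ctss (chr3:95526536-95526835, plus strand): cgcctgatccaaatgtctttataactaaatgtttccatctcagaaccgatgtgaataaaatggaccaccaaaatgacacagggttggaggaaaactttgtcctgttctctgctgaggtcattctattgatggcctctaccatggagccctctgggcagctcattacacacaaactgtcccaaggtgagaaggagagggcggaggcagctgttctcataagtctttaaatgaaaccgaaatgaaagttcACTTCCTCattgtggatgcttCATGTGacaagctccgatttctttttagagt
Cd68 (chr11:69666121-69666420, minus strand): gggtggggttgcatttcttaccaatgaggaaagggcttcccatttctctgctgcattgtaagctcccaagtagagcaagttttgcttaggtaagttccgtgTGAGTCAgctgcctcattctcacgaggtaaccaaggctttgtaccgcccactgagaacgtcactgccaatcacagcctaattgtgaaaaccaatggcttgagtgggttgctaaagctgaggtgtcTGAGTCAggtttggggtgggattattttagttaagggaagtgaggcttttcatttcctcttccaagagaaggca
The PU.1 letters of *Spp1* begin 113 bases before the start, and those of *Ctss* lie on the opposite strand across the start, where they read ACTTCCTC, followed by an opposite-strand CACATG that reads CATGTG. *Cd68* has 2 AP-1 matches, both TGAGTCA, before its start, and *Gpnmb* has 1, TGACTCA, just after its start. The 4 genes printed had log2 fold changes of 2.20 (*Spp1*), 4.75 (*Gpnmb*), 0.97 (*Ctss*) and 1.07 (*Cd68*). *Lyz2* and *Lgals3*, with log2 fold changes of 1.34 and 1.36, held none of the 4 motifs in their windows.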

How the data were processed

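Liver RNA of 5 AAV-NC and 6 AAV-TuD mice was read with QuantSeq 3′ mRNA libraries made from 500 ng RNA. The authors trimmed with BBDuk, mapped to GRCm38 with STAR 2.5.3a, summed reads per gene with Rsubread and deposited these raw counts for 13669 genes, each with 10 reads or more in 5 or more livers. The annotation release, strand setting and treatment of multimapping reads are not given in the sources used here. No column belonged to other samples.

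The deposited counts of genes above 10 reads in 5 or more livers were tested in edgeR 4.0.16 (R 4.3.3) by quasi-likelihood, with TMM factors and Benjamini-Hochberg adjustment over all 13334 genes, at 0.05. CPM are scaled by TMM, with a prior count of 2 on the log2 scale. Ratios to the resident Kupffer cell sum used CPM plus 0.1 and a two-sided exact permutation test over the 462 ways to assign the livers. Positions are those of GENCODE M21 for GRCm38. The p values measure the spread between livers, with 8148531 to 12043959 reads each. The count test was tested on simulated data.

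The members and the gene lists were chosen with earlier results of these data known. Named were all members, the 2 genes with the smallest p value of each list, genes past the threshold where a list had at most 6, relatives and partners of the members, and the 5 genes most alike in pattern. *Csf1r*, *Timd4*, *Slc40a1*, *Plin2*, *Fabp5*, *Alb* and *Nox4* were named after their values were seen. A gene that this rule selects is not reported here. Alternatives were other scalings, DESeq2 1.42.0, limma-voom (limma 3.58.1), other filters, a fold threshold, other denominators and each liver left out. Omission of the livers with over 25% *Mup* reads was added after the data had been seen.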

Additional observations from a re-analysis of the deposited data

Results flagged for a closer look

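A liver stood apart from the rest of its group in 3 of the 24 sets of values examined (each marker, and the *Mup* share of reads, among others, in each group) by Dixon's criterion, which about 5% of groups meet by chance. *Gpnmb* in the AAV-NC group had its reads in liver 8 alone, so that the gap to the next value was the whole range (ratio of gap to range 1). *Spp1* in the AAV-TuD group was set apart in liver 5, where it was 11.7 CPM against 22.8 to 28.4 CPM in the other 5 livers (ratio 0.664). The *Mup* share was set apart in AAV-NC liver 7, at 38.6% against 13.8% to 18.7% in the other controls (ratio 0.804).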

How the results depend on the processing

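No paired analysis was possible because the 2 groups share no replicate number. The number of members called, 8 in the main analysis, lay between 5 and 9 over 21 alternatives, and 5 were called without AAV-TuD liver 4 and 5 without AAV-TuD liver 10 (range over livers left out 5 to 8). All 9 were called with DESeq2 and with library size alone. The number of genes called, 1543, was 1012 to 1829 with 1 liver left out (1012 without AAV-TuD liver 4) and 469 with a log2 fold change of at least 1, at which 6 members were called. Library size alone moved the median over all genes to a log2 fold change of 0.23 and the share of calls that were higher from 62.6% to 95.1%. Over all alternatives in which it was tested, the log2 fold change was 4.47 to 7.45 for *Gpnmb*, 2.01 to 2.44 for *Spp1*, 1.23 to 1.65 for *Lgals3*, 1.14 to 1.75 for *Lyz2*, 0.88 to 1.24 for *Ctss*, 0.87 to 1.36 for *Cd68*, 0.87 to 1.54 for *Tyrobp*, 0.73 to 1.08 for *Cybb* and 0.55 to 0.98 for *Cd9*. *Gpnmb* could not be tested without AAV-TuD liver 4, 5, 9, 10 or 11 or without the livers with high *Mup* shares, since it then had too few reads. *Cd9* was also called without AAV-TuD liver 5 or AAV-NC liver 6. Relative to resident Kupffer cell markers, 5 members passed, 3 with *Adgre1* alone, 3 with the 4 markers *Clec4f*, *Vsig4*, *Timd4* and *Cd5l*, 6 with the general macrophage list, and 4 to 6 with 1 liver left out. There the difference of *Cd9* was -0.15 with those 4 markers and -0.13 to 0.27 with 1 liver left out, at -0.055 without AAV-TuD liver 3, -0.126 without AAV-NC liver 8 and -0.0064 without AAV-TuD liver 9, and that of *Cybb* was -0.062 with those 4 markers. The cause of these shifts was not tested. Depth limits *Gpnmb*, *Lgals3*, *Cd68* and *Tyrobp* most, which had the fewest reads per liver.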
